A study of Mus musculus with 56 samples.

Results

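D164A/- mammary tumor cells were compared with D164A/fl cells, both without added cytokine, to ask which transcripts differ at rest between cells with and without a floxed β-catenin allele beside the D164A allele. The comparison uses 8 of the 56 RNA-sequencing samples of the series, chosen by genotype and treatment from the labels: 4 D164A/- and 4 D164A/fl samples, 2 of each in a Wnt3a and in a TGFβ experiment. All 8 are murine breast cancer cells of the MMTV-PyMT model on the FVB/N background, in which the mouse mammary tumor virus promoter drives polyoma middle T antigen in the mammary epithelium. The untreated cells of the Wnt3a experiment were cultured for 3 days and those of the TGFβ experiment for 4 days, and no untreated sample received either cytokine. According to the study's methods, D164A/- cells were made from D164A/fl cells with an adenovirus carrying Cre and GFP followed by sorting for GFP, with a GFP virus lacking Cre as the control. The treatment protocol in the labels names Pygo2 lines, normal and mutant, whereas titles and genotypes of the samples give β-catenin alleles, which the groups follow here. How many lines or clones the D164A genotypes stand for is not given in the sources used here, so the deletion of the floxed allele and the cell line that carries it cannot be told apart. The study calls the samples of a condition biological duplicates, but the labels do not say that they are separate cultures, so p-values measure the spread between these samples, which may be technical.

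β-catenin has roles at adherens junctions, where it links cadherins to the actin cytoskeleton, and in the nucleus, where it binds TCF/LEF transcription factors and activates Wnt target genes. Bcl9 and Bcl9l bind its first armadillo repeats and bring in the Pygopus proteins, and the D164A substitution abolishes the binding of Bcl9 and Bcl9l while the remainder of the protein is kept. The mammary epithelium is built of luminal cells, which make milk proteins when they differentiate, and basal or myoepithelial cells, which rest on the basement membrane and carry keratins of the epidermal type and hemidesmosomes.

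Levels are given in CPM, counts per M reads of the effective library size that the authors used for scaling. The 8 libraries held 23.2 to 28.3 M reads in genes (median 26.2 M), a single read was worth 0.0322 to 0.0422 CPM, and 3.36% to 5.85% of all reads fell on the 10 top genes. Wherever 4 levels of a genotype are listed, the order is number 1 and 2 of the Wnt3a experiment, then number 1 and 2 of the TGFβ experiment. Log2 fold changes are D164A/- over D164A/fl on the scale log2(CPM + 1), a scale that shrinks the changes of lowly expressed genes.

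Both number 2 libraries of the Wnt3a experiment stood apart from the other 6. The first principal component, with 49.8% of the variance, separated the genotypes, and on the second, with 36.0%, D164A/fl number 2 lay at -80.2 and D164A/- number 2 at -43.5, whereas the other libraries lay between -0.054 and 32.6. Between the replicates of a condition, chi-square per gene was 322 for D164A/fl and 198 for D164A/- cells of the Wnt3a experiment against 43.9 and 28.1 in the TGFβ experiment, so in none of the conditions did the replicates agree within sampling noise. The difference between number 2 and number 1 followed the GC content of the transcripts across 9153 genes, with a Spearman correlation of 0.774 in D164A/fl and 0.825 in D164A/- cells of the Wnt3a experiment and of 0.432 and 0.419 in the TGFβ experiment. The genotype difference itself had a Spearman correlation of -0.239 with GC content. These are descriptions across genes, which are not independent replicates, and what sets these libraries apart was not tested. Results are therefore also given without them. Where it changes a call, a value is also given with the replicate block, a term that pairs the libraries of the same number, or with the GC trend removed, a correction for the GC content of each gene.

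**Figure D1:**
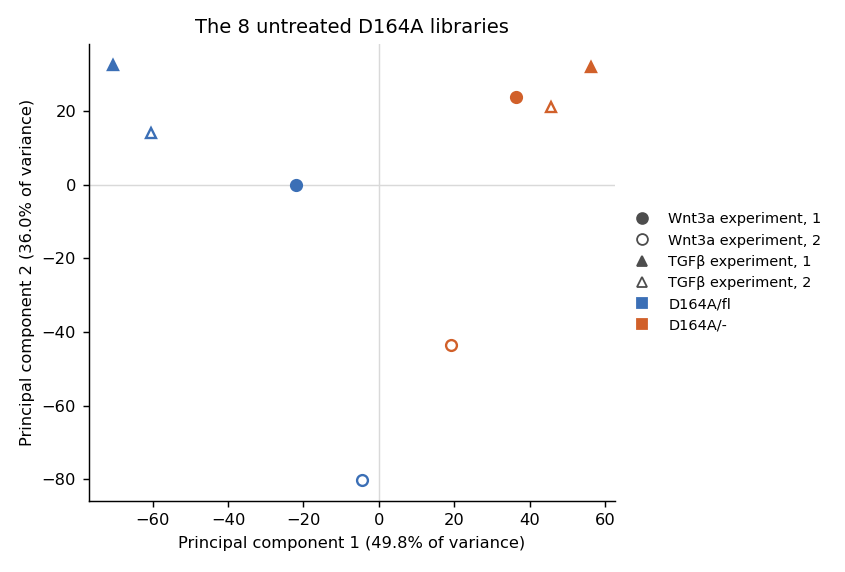
Principal components of log2(CPM + 1) over 11572 genes in the 8 untreated libraries, with component 1 on the x axis and component 2 on the y axis (arbitrary units). Circles are the Wnt3a and triangles the TGFβ experiment, filled symbols are number 1 and open symbols number 2. D164A/- libraries (orange) lie at 19.3 to 56.3 on component 1 and D164A/fl libraries (blue) at -70.6 to -4.47, and both open circles lie at the bottom, at -80.2 and -43.5 on component 2.

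The cells carried epithelial transcripts in both genotypes. The 9 epithelial markers summed to 3166 to 4339.9 CPM in D164A/fl and 2372 to 4528 CPM in D164A/- cells, and 8 of them had at least 1 CPM in every library. Of these markers Cldn4, a tight junction claudin, fell. The 13 fibroblast markers summed to 55.8 to 71.0 CPM in D164A/fl and 72.9 to 105.6 CPM in D164A/- cells. Nearly all of this was Pdgfra, since the other 12 together reached at most 9.05 CPM, and Lum and Col3a1 were at 0 in all 8 libraries. The endothelial markers summed to at most 2.38 CPM with Tie1 and Cldn5 at 0, the immune markers to at most 5.66 CPM with Cd3e and C1qa at 0, and the adipocyte markers to at most 2.20 CPM with Plin1 and Cidec at 0. In bulk samples, fewer cells of a type and less RNA per cell cannot be told apart.

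Ctnnb1, the gene of β-catenin (chr9:120933400-120960507 in GRCm38), had 759, 1012, 612 and 679 CPM in D164A/fl and 828, 1045, 752 and 775 CPM in D164A/- cells. The ranges overlapped, and the difference did not pass the test (log2 fold change 0.17 ± 0.177 SE, adjusted p = 0.578, limma). As reads were summed over the whole gene, neither the D164A substitution nor the loss of the exons removed by Cre can be seen in them, and they are no check of the labels. Bcl9 had 49.1, 70.5, 29.7 and 40.01 CPM in D164A/fl and 45.6, 67.7, 39.2 and 44.4 CPM in D164A/- cells (log2 fold change 0.0945 ± 0.218 SE, adjusted p = 0.808). Bcl9l had 60.6, 231, 25.8 and 49.3 CPM and 105, 208, 91.4 and 125 CPM (log2 fold change 0.94 ± 0.479 SE, adjusted p = 0.244, 1.298 and adjusted p = 0.0161 without both libraries that stood apart, 1.13 and adjusted p = 0.0261 with the GC trend removed), with the number 2 library of the Wnt3a experiment highest in both genotypes. Pygo2, which binds histone H3 tails and Bcl9 proteins, was at 74.2 to 131 CPM in D164A/fl and 64.8 to 111 CPM in D164A/- cells. Pygo1 did not pass the filter and was at most 0.257 CPM in D164A/fl cells and 0.464 to 1.74 CPM in D164A/- cells.

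Without added Wnt3a, Axin2 and Lef1 were low in both genotypes. Axin2, a direct target and feedback inhibitor, had 1.18, 1.66, 0.142 and 0.322 CPM in D164A/fl and 0.365, 1.52, 0.0386 and 0.381 CPM in D164A/- cells, and Lef1, a TCF/LEF factor and target, 0.472, 1.19, 0.106 and 0.193 CPM and 0.693, 0.338, 1.93 and 1.37 CPM. Both genes were below the filter and were not tested. In Wnt3a-treated cells Axin2 had 154 and 149 CPM in D164A/fl and 39.9 and 95.3 CPM in D164A/- cells. Lef1 was not higher with Wnt3a, at 0.131 and 0.0351 CPM and 0.441 and 0.182 CPM, so its low level is no readout of the pathway here. Among the TCF factors that were tested, Tcf7 and Tcf7l1 had log2 fold changes of -0.24 and 0.17 (adjusted p = 0.434 and 0.777, limma). Tcf7l2 had 16.97, 22.4, 7.89 and 8.91 CPM in D164A/fl and 33.3, 22.2, 40.4 and 30.1 CPM in D164A/- cells, a difference just outside the threshold (log2 fold change 1.20 ± 0.334 SE, adjusted p = 0.063, 1.60 and adjusted p = 0.0061 without both libraries that stood apart, 1.12 and adjusted p = 0.0446 with the GC trend removed). Of the list of Wnt feedback and target genes, 16 of 30 were tested, and 1 rose and 0 fell. That is 6.25% called, near the 6.82% over all genes tested. The median log2 fold change was -0.14 beside 0.00904 over all genes tested. The counts were 2 higher and 2 lower when both number 2 libraries of the Wnt3a experiment were left out. The gene that rose was Rnf43, a ubiquitin ligase that removes Frizzled receptors from the surface, with 2.94, 5.12, 3.47 and 2.93 CPM in D164A/fl and 9.44, 8.53, 14.9 and 13.1 CPM in D164A/- cells (log2 fold change 1.43 ± 0.254 SE, adjusted p = 0.0147). None of the 20 tested genes of β-catenin's partners and destruction complex passed the test in limma, the nearest being Tcf7l2 and the corepressor Tle1 (log2 fold change -0.49 ± 0.164 SE, adjusted p = 0.102). With those 2 libraries left out, 4 rose and 0 fell. Of the Wnt ligands and receptors, 18 were tested and 11.1% were called, beside 6.82% over all genes. The receptor Ror1 rose (log2 fold change 1.63 ± 0.367 SE, adjusted p = 0.0325, and 0.0591 with the replicate block). Porcn, the acyltransferase that makes Wnt ligands fit for secretion, fell from 15.4, 20.3, 14.2 and 17.7 CPM to 2.59, 3.08, 2.16 and 2.44 CPM (log2 fold change -2.32 ± 0.199 SE, adjusted p = 0.000676).

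The much-cited targets Myc and Ccnd1 were lower in D164A/- cells without passing both criteria. Ccnd1 (cyclin D1) had 1750.1, 1574, 1428 and 1624 CPM in D164A/fl and 889.8, 1147, 709.6 and 835 CPM in D164A/- cells, groups that did not overlap, with an adjusted p below 0.05 and a change below the fold limit (log2 fold change -0.85 ± 0.185 SE, adjusted p = 0.0291). Myc had 143, 102, 517 and 468 CPM and 66.8, 94.5, 41.3 and 65.6 CPM, also without overlap (log2 fold change -1.91 ± 0.496 SE, adjusted p = 0.0509, -2.50 and adjusted p = 0.00777 without both libraries that stood apart, -1.81 and adjusted p = 0.0477 with the GC trend removed). In Myc, the difference lay mostly in the TGFβ experiment (log2 fold change -0.60 in the Wnt3a and -3.21 in the TGFβ experiment).

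Across the transcriptome, 789 genes differed between the genotypes, 330 higher and 459 lower in D164A/- cells. These are 6.82% of the 11572 genes tested (2.85% higher, 3.97% lower), called at a Benjamini-Hochberg adjusted p of at most 0.05 in limma with experiment as a block and a log2 fold change of 1 or more in size. In 706 of the 789 the 4 and 4 libraries did not overlap, which held for 1723 or 14.9% of all genes tested. A log2 change of at least 3 was seen for 31 genes that rose and 52 that fell. Without both number 2 libraries of the Wnt3a experiment, 1916 genes were called (16.6%), 953 higher and 963 lower, and 781 of the 789 were among them in the same direction. All list counts given without these libraries are to be read beside that 16.6%, and those with all 8 libraries and no replicate block beside the 6.82%. With the replicate block 760 genes were called, and 649 of the 789 were among them in the same direction. Leaving out a single library gave 1435 calls without D164A/fl and 1384 without D164A/- number 2 of the Wnt3a experiment, 488 without D164A/- number 1 of the Wnt3a experiment, 331 and 225 without D164A/fl number 1 and 2 of the TGFβ experiment, and 290 and 258 without D164A/- number 1 and 2 of it. With all 56 samples in the fit, 1188 genes were called.

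Krt17, Col17a1 and Krt6a were among the 12 largest decreases. Krt17 (keratin 17, chr11:100256215-100261029) had 132, 274, 48.4 and 132 CPM in D164A/fl and 0.510, 2.03, 0.154 and 0.114 CPM in D164A/- cells (log2 fold change -6.32 ± 0.396 SE, adjusted p = 0.000185, limma). Col17a1, the hemidesmosomal collagen XVII, had 124, 285, 45.9 and 72.8 CPM in D164A/fl and 0.802, 4.81, 0.965 and 1.26 CPM in D164A/- cells (log2 fold change -5.34 ± 0.451 SE, adjusted p = 0.000642). Krt6a, a keratin of wounded and cycling epidermis, had 78.2, 168, 20.3 and 81.99 CPM and 0.474, 5.78, 0.0386 and 0.229 CPM (log2 fold change -5.21 ± 0.570 SE, adjusted p = 0.00209). In all of these the D164A/fl libraries were high throughout, and the highest D164A/- library was number 2 of the Wnt3a experiment. Trpv6, an epithelial calcium channel, went from 141, 126, 63.4 and 112 CPM to 0.656, 0.253, 0.502 and 0.838 CPM (log2 fold change -6.11 ± 0.283 SE, adjusted p = 9.6e-05), and Abca12, the lipid transporter of the epidermal barrier, from 51.4, 21.3, 83.4 and 106 CPM to 0.292, 0.507, 0.618 and 0.0762 CPM (log2 fold change -5.39 ± 0.403 SE, adjusted p = 0.000353). The small heat shock protein gene Hspb8 had 52.5 to 105 CPM in D164A/fl and 1.26 to 1.90 CPM in the D164A/- libraries (log2 fold change -5.12 ± 0.268 SE, adjusted p = 0.000113). Nt5e, the ecto-5'-nucleotidase CD73, had 509.6, 179.7, 322 and 453 CPM and 15.3, 16.3, 5.75 and 11.8 CPM (log2 fold change -4.77 ± 0.399 SE, adjusted p = 0.000626). Ly6d, Rcn1 (an ER calcium-binding protein), Serpina3h (a serine protease inhibitor), Abcc4 (an efflux transporter) and Il23a (a subunit of interleukin 23) completed the 12 largest decreases, with log2 fold changes of -5.19, -4.95, -4.84, -4.70 and -4.56. Serpina3h belongs to a family of near-identical copies, among which uniquely mapped reads can be split unevenly.

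Csn3 and Csn1s2a, genes of milk proteins, were among the 12 largest increases. Csn3 (κ-casein, chr5:87925579-87932550) had 126, 59.6, 39.8 and 34.2 CPM in D164A/fl and 2662, 545, 5387 and 4582 CPM in D164A/- cells (log2 fold change 5.41 ± 0.722 SE, adjusted p = 0.00453, limma). The lowest D164A/- library was again number 2 of the Wnt3a experiment, and the groups did not overlap. Csn1s2a, another casein gene, had 0.574, 0.396, 0 and 0.0643 CPM and 18.8, 4.01, 97.4 and 55.3 CPM (log2 fold change 4.46 ± 0.716 SE, adjusted p = 0.0101). Aldh1a3, a retinaldehyde dehydrogenase of luminal progenitors, had 4.02, 2.09, 2.97 and 3.38 CPM and 72.4, 22.2, 129.6 and 91.2 CPM (log2 fold change 4.05 ± 0.431 SE, adjusted p = 0.00184). Rbp7, a cellular retinol-binding protein, had 3.07, 7.21, 0.212 and 0.354 CPM and 119.9, 23.4, 283 and 211 CPM (log2 fold change 5.41 ± 0.884 SE, adjusted p = 0.0106), and Muc15, a membrane mucin of the milk fat globule, 17.7, 12.5, 2.02 and 4.60 CPM and 166, 32.6, 443 and 268 CPM (log2 fold change 4.32 ± 0.858 SE, adjusted p = 0.0218). Ace, the angiotensin-converting enzyme, had 0.0354 to 0.901 CPM in D164A/fl and 16.3 to 35.1 CPM in the D164A/- libraries (log2 fold change 4.39 ± 0.314 SE, adjusted p = 0.000293). Krt15, a basal keratin, rose against the direction of Krt17 and Krt6a, from 1.55, 4.18, 0.318 and 0.804 CPM to 50.6, 18.9, 82.1 and 62.01 CPM (log2 fold change 4.34 ± 0.548 SE, adjusted p = 0.00356). Them5, Dysf (dysferlin), Adgre5 (the adhesion receptor CD97), Slc13a3 (a dicarboxylate transporter) and Bhlhb9 made up the remaining increases among the 12, with log2 fold changes of 5.21, 4.41, 4.22, 4.03 and 3.99.

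**Figure D2:**
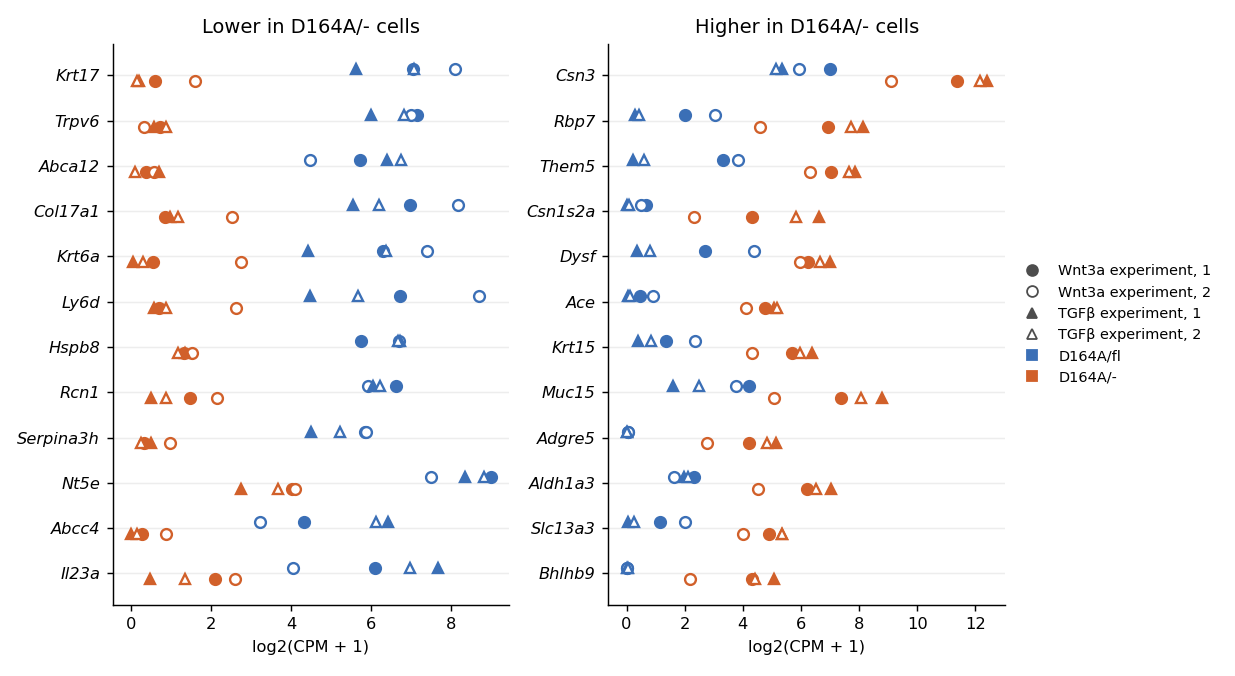
Levels as log2(CPM + 1) on the x axis of the 12 genes with the largest decrease (left) and the 12 with the largest increase (right) that met the naming rule, 1 gene per line. Each symbol is a library, D164A/fl in blue and D164A/- in orange, with circles for the Wnt3a and triangles for the TGFβ experiment and open symbols for number 2. The 4 and 4 libraries do not overlap in any of the 24 genes, which was part of the rule, and the open orange circle is the one nearest to the D164A/fl libraries in Csn3, Rbp7 and Muc15.

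Of the basal and myoepithelial genes, 9 of 22 tested fell and 3 rose, with a median log2 fold change of -0.93. With the replicate block, 2 were higher and 10 lower. Besides Krt17 and Krt6a, the genes that fell included Krt5, with 222, 805, 19.99 and 81.3 CPM in D164A/fl and 8.82, 39.2, 9.38 and 11.5 CPM in D164A/- cells (log2 fold change -3.14 ± 0.744 SE, adjusted p = 0.0378), the laminin chain gene Lama3 (log2 fold change -1.99), the Notch ligand Jag2 (-3.07), Id4 (-2.80), Lgals7 (-2.05) and Egfr, the EGF receptor (-1.23). Next to Krt15, Oxtr, the oxytocin receptor of myoepithelial cells (log2 fold change 3.09 ± 0.621 SE, adjusted p = 0.0225, and 0.0531 with the replicate block), and Cav1 (caveolin-1) rose, Cav1 from at most 0.433 CPM in D164A/fl cells to 19.1, 6.12, 10.04 and 10.2 CPM (log2 fold change 3.21 ± 0.312 SE, adjusted p = 0.00124). Krt14, the partner of Krt5, did not pass the test (506, 2408, 183 and 403 CPM and 185, 535, 168 and 206 CPM, log2 fold change -1.18, adjusted p = 0.221). Trp63, the transcription factor of basal epithelia, did not either (156, 134, 37.1 and 52.3 CPM and 56.1, 47.4, 50.4 and 59.2 CPM, log2 fold change -0.58, adjusted p = 0.318). The D164A/- libraries of Trp63 lay within the range of the D164A/fl libraries.

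Of the luminal mammary genes, 4 of 25 tested rose and 2 fell (24% called, beside 6.82% over all genes), with a median of 0.52. Leaving out the 2 libraries that stood apart gave 11 higher and 6 lower. Next to Csn3 and Aldh1a3, the milk genes Csn2 (β-casein, 1.82, 1.01, 0 and 0.354 CPM in D164A/fl and 5.43, 2.19, 32.8 and 18.9 CPM in D164A/- cells, log2 fold change 2.70 ± 0.679 SE, adjusted p = 0.0455, and 0.0771 with the replicate block) and Lalba (α-lactalbumin, 0.0675, 0.216, 0 and 0 CPM and 2.55, 1.56, 18.8 and 10.6 CPM, log2 fold change 2.66 ± 0.488 SE, adjusted p = 0.0165) rose. The genes that fell were Ly6d and Ly6a, small surface proteins, Ly6a from 416, 424, 204 and 339 CPM to 53.3, 146, 5.21 and 13.6 CPM (log2 fold change -3.51 ± 0.576 SE, adjusted p = 0.0106). Elf5, the transcription factor of alveolar differentiation, and Prlr, the prolactin receptor, were higher in each D164A/- library than in the D164A/fl library of the same number and experiment, and missed the threshold. Elf5 had 129, 268, 7.11 and 13.4 CPM and 348, 362, 768 and 497 CPM (log2 fold change 3.38 ± 0.890 SE, adjusted p = 0.0528, 4.37 and adjusted p = 0.0109 without both libraries that stood apart, 3.33 and adjusted p = 0.0381 with the GC trend removed). Prlr had 75.1, 25.3, 6.51 and 12.995 CPM and 177, 43.2, 265 and 199 CPM (log2 fold change 2.74 ± 0.774 SE, adjusted p = 0.0651, 3.40 and adjusted p = 0.0103 without both libraries that stood apart, 2.61 and adjusted p = 0.041 with the GC trend removed). The luminal keratins Krt8 and Krt18 were at 199 to 518 CPM and 494 to 1272 CPM in D164A/fl and at 249.6 to 698 CPM and 369 to 1036 CPM in D164A/- cells (adjusted p = 0.664 and 0.418, limma).

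Of the squamous and cornified envelope genes, 11 of 30 were tested and 2 fell (18.2%, beside 6.82% called over all genes), the small proline-rich genes Sprr1b (-2.15) and Sprr1a (-1.63). On the 6 other libraries, 2 were higher and 3 lower. S100a14, an epithelial S100 protein, was at 177 to 202 CPM in D164A/fl and 5.29 to 17.5 CPM in the D164A/- libraries (log2 fold change -4.50 ± 0.326 SE, adjusted p = 0.000293).

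Of 28 chemokine and cytokine genes tested, 12 fell and 1 rose, with a median log2 fold change of -1.34. The replicate block gave 1 higher and 9 lower. The neutrophil attractants Cxcl5 and Cxcl1 were among the most abundant of them. Cxcl5 had 637, 220.5, 828 and 569 CPM in D164A/fl and 61.6, 93.2, 3.36 and 13.7 CPM in D164A/- cells (log2 fold change -4.36 ± 0.836 SE, adjusted p = 0.0194, limma), and Cxcl1 479, 112, 759 and 508 CPM and 45.3, 86.5, 7.91 and 23.1 CPM (log2 fold change -3.64 ± 0.780 SE, adjusted p = 0.0274, and 0.0602 with the replicate block). In both genes the genotypes did not overlap, but the D164A/fl level of number 2 of the Wnt3a experiment came close to that of the D164A/- library with the same number. Tslp, an epithelial cytokine, ranged from 1.91 to 583 CPM among the D164A/fl libraries and from 0.347 to 2.24 CPM among the D164A/- libraries, with overlap (log2 fold change -5.00 ± 1.29 SE, adjusted p = 0.0495, and 0.0765 with the replicate block). Il1a, the alarmin interleukin 1α, was at 50.3, 5.73, 68.6 and 74.7 CPM and 1.68, 2.03, 0.232 and 0.609 CPM (log2 fold change -4.20 ± 0.743 SE, adjusted p = 0.0144), and Csf3 (G-CSF) at 96.7 to 170.2 CPM and 12.4 to 49.6 CPM (log2 fold change -2.29 ± 0.364 SE, adjusted p = 0.00956). Ccl20, Il34, Tnf, Cxcl10, Cxcl2 and Pdgfb also fell, by log2 fold changes between -2.96 and -1.66, and Il34 had adjusted p = 0.0544 with the replicate block. The gene of the list that rose was Il33, a nuclear alarmin of the interleukin 1 family, from 4.89, 9.37, 0.142 and 0.675 CPM to 37.9, 20.8, 17.6 and 19.8 CPM (log2 fold change 2.86 ± 0.438 SE, adjusted p = 0.00834).

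NF-κB is a known activator of Cxcl genes, and the κB letters GGGA, any base and TTTCC, in this order without gaps, were therefore searched on both strands of the 250 bases before each annotated start in RefSeq (GRCm38.p6). They occurred in 112 of 27025 genes with a promoter sequence (0.414%), in 5 of 27 with a sequence in the cytokine list. Of its 12 genes that fell, 6 had a promoter sequence, and 2 of these 6 held the letters. The sequences of those 2, Cxcl1 (chr5:90890995-90891244, plus strand) and Cxcl2 (chr5:90903649-90903898, plus strand), are shown because their transcripts fell together, with the match in capitals, starting 71 and 97 bases before the start. The motif was chosen after the list's values were seen, and a match is a description, not evidence of binding.
Cxcl1: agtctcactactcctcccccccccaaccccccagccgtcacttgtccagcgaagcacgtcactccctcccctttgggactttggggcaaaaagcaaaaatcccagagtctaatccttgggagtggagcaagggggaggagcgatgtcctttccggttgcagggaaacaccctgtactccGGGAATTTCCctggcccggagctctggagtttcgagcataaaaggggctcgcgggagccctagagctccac
Cxcl2: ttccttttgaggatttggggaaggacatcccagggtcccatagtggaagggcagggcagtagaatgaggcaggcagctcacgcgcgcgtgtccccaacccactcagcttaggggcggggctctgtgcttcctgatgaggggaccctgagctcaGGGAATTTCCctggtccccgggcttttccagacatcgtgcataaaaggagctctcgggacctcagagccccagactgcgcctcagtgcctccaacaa

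Several genes of the integrated stress response fell, and Calr was the 1 gene of their list that rose. Of the 30 genes tested for ER chaperones and the stress response, 10 fell and 1 rose, and the median was -0.15. Atf4, the transcription factor at the centre of this response, had 657, 595, 964 and 781 CPM in D164A/fl and 313, 418, 398 and 339 CPM in D164A/- cells (log2 fold change -1.01 ± 0.187 SE, adjusted p = 0.017, -0.92 and adjusted p = 0.0248 with the GC trend removed, limma). Ddit3 (CHOP), a factor downstream of it, had 59.1, 37.2, 115 and 105 CPM and 9.59, 14.5, 12.2 and 11.3 CPM (log2 fold change -2.51 ± 0.302 SE, adjusted p = 0.00294). Chac1, which degrades glutathione, had 49.7, 45.9, 47.3 and 60.9 CPM and 7.04, 18.2, 4.79 and 8.34 CPM (log2 fold change -2.43 ± 0.343 SE, adjusted p = 0.00589), and Asns, asparagine synthetase, 603, 315, 583 and 598 CPM and 158, 159, 177 and 162 CPM (log2 fold change -1.62 ± 0.217 SE, adjusted p = 0.00453). In each of these 4 genes every D164A/fl library was above every D164A/- library. Ppp1r15a (GADD34, which restores translation), Atf3, Atf5, Trib3, Herpud1 (a membrane protein of ER-associated degradation) and Sesn2 also fell, with log2 fold changes of -3.34, -2.80, -2.12, -1.37, -1.45 and -1.07 (for Sesn2 -0.91 and adjusted p = 0.0381 with the GC trend removed). Calreticulin, Calr, rose (log2 fold change 1.09 ± 0.267 SE, adjusted p = 0.042, and 0.0534 with the replicate block), and the chaperone BiP, Hspa5, had a log2 fold change of -0.28 (adjusted p = 0.516). The cystine transporter Slc7a11, another gene that ATF4 activates, fell (log2 fold change -2.09 ± 0.528 SE, adjusted p = 0.047). It was the only called member of the glutathione and NRF2 list, 1 of 17 tested (5.88%, beside 6.82% called over all genes). The counts were 4 higher and 1 lower when both number 2 libraries of the Wnt3a experiment were left out.

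The composite C/EBP-ATF element bound by ATF4 has the core TGATGNAA, which was found on either strand in the 250 bases before the start of 1056 of 27025 genes (3.91%). It was present in 6 of 28 genes with a sequence in the chaperone and stress list and in 4 of its 10 genes that fell, Asns, Atf3, Chac1 and Herpud1. Chac1 (chr2:119350992-119351241, plus strand) and Asns (chr6:7693210-7693459, minus strand) are shown, with the match in capitals, starting 193 and 23 bases before the start. In Chac1 the match is on the opposite strand and reads as the reverse complement. The element was searched because these genes fell, so the share is a description and no test was made of it.
Chac1: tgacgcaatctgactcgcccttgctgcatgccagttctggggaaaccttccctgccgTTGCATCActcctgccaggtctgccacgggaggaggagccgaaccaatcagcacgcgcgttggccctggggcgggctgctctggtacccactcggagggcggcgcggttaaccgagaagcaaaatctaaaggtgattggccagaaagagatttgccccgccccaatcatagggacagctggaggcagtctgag
Asns: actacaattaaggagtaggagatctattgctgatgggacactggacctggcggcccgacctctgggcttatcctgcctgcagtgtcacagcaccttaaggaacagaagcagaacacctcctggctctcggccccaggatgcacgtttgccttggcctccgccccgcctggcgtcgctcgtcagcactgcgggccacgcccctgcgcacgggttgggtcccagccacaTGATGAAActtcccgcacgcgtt

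Genes of mitosis and DNA replication that passed the test all rose in D164A/- cells. Of 44 tested, 10 rose and 0 fell, 42 had a positive log2 fold change, and the median was 0.89. With those 2 libraries left out, 23 rose and 0 fell. Cdk1, the mitotic kinase, had 168, 195, 141 and 139 CPM in D164A/fl and 346, 354, 387 and 340.4 CPM in D164A/- cells (log2 fold change 1.16 ± 0.156 SE, adjusted p = 0.00476, limma), with every D164A/- library above every D164A/fl library. Kif20a and Kif11, kinesins of the spindle and of cytokinesis, had the largest changes (log2 fold change 1.62 ± 0.274 SE, adjusted p = 0.012 for Kif20a and log2 fold change 1.55 ± 0.388 SE, adjusted p = 0.0451 for Kif11). The cyclins Ccna2, Ccnb1 and Ccne1 rose with log2 fold changes of 1.38, 1.29 and 1.19, of which Ccnb1 had adjusted p = 0.0521 with the replicate block. Kif11 was lowest in the D164A/- library number 2 of the Wnt3a experiment, 90.6 CPM, where the groups overlapped, and it was not called in edgeR.

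Targets of p53 and inhibitors of the cell cycle moved in both directions, 4 higher and 3 lower of 25 tested (28% called, beside 6.82% over all genes). Leaving out the 2 libraries that stood apart gave 7 higher and 7 lower. Ccng1 (cyclin G1), a p53 target, had 62.9, 43.97, 55.3 and 48.3 CPM in D164A/fl and 379.7, 89.8, 364 and 346 CPM in D164A/- cells (log2 fold change 2.27 ± 0.423 SE, adjusted p = 0.0175, limma). Mdm2, the ubiquitin ligase of p53, had 80.96, 57.3, 80.7 and 71.2 CPM and 175, 84.8, 177 and 175 CPM (log2 fold change 1.02 ± 0.247 SE, adjusted p = 0.0409, 0.92 and adjusted p = 0.0125 with the GC trend removed), and the RNA-binding p53 target Zmat3 rose as well (log2 fold change 1.39 ± 0.223 SE, adjusted p = 0.0101). Cdkn1a (p21), the best-known target, had 32.4, 23.9, 84.4 and 66.7 CPM and 60.3, 37.5, 57.8 and 73.7 CPM (log2 fold change 0.28 ± 0.269 SE, adjusted p = 0.536). In Ccng1, Mdm2 and Zmat3 the lowest D164A/- library was number 2 of the Wnt3a experiment. Gadd45a, a stress gene shared with the ATF4 response, and the inhibitor Cdkn2b (p15) fell (-2.67 and -1.51).

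Of the mesenchymal and EMT genes, 5 of 23 tested fell and 2 rose. On the 6 other libraries, 3 were higher and 9 lower. In the fit with the replicate block, 1 rose and 5 fell. Cdh2 (N-cadherin) had 37.1, 33.8, 32.7 and 27.3 CPM in D164A/fl and 4.99, 3.04, 3.94 and 3.96 CPM in D164A/- cells (log2 fold change -2.76 ± 0.211 SE, adjusted p = 0.000372, limma), whereas Cdh1 (E-cadherin) had 829, 892, 823 and 871 CPM and 650.2, 862, 663 and 659.7 CPM (log2 fold change -0.28 ± 0.166 SE, adjusted p = 0.313). The receptor tyrosine kinase Axl had 109.7, 113, 184 and 158 CPM and 10.6, 34.5, 1.31 and 3.85 CPM (log2 fold change -4.07 ± 0.663 SE, adjusted p = 0.0104), and the matricellular Sparc 129, 201, 28.5 and 50.2 CPM and 6.02, 16.4, 3.67 and 4.95 CPM (log2 fold change -3.38 ± 0.375 SE, adjusted p = 0.0022). Snai2 (Slug) and Mmp2 also fell (-1.59 and -2.23). Integrin β3, Itgb3, rose from 17.4, 25.5, 2.69 and 5.21 CPM to 68.4, 34.6, 144 and 119 CPM (log2 fold change 2.98 ± 0.683 SE, adjusted p = 0.0341, and 0.07 with the replicate block), and so did S100a4 (log2 fold change 2.41 ± 0.566 SE, adjusted p = 0.0367). Neither Itgb3 nor S100a4 was called in edgeR. Vim (vimentin) and Fn1 (fibronectin), both EMT markers, did not pass the test over both experiments. Vim had 158, 548, 18.7 and 27.7 CPM and 354, 346, 350.3 and 338 CPM (log2 fold change 2.05 ± 0.710 SE, adjusted p = 0.11, 2.96 and adjusted p = 0.00837 without both libraries that stood apart). Fn1 had 2064, 946, 5409 and 5253 CPM and 466, 1049.8, 80.4 and 259.8 CPM (log2 fold change -3.10 ± 0.839 SE, adjusted p = 0.0569, -4.18 and adjusted p = 0.00679 without both libraries that stood apart, -3.05 and adjusted p = 0.0429 with the GC trend removed). In both genes the groups overlapped in the Wnt3a experiment and lay far apart in the TGFβ experiment, with D164A/- cells higher for Vim and lower for Fn1. Of the epithelial junction genes, 2 of 30 tested fell (6.67% beside 6.82% called over all genes), Cldn4 (log2 fold change -3.75 ± 0.588 SE, adjusted p = 0.00933) and Cldn1 (log2 fold change -2.21 ± 0.366 SE, adjusted p = 0.011). The counts were 0 higher and 5 lower when both number 2 libraries of the Wnt3a experiment were left out, a fit that called 16.6% of all genes. Pairing libraries by number gave 0 higher and 4 lower.

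More genes of the matrix fell than rose. Among 13 collagens tested 5 fell (Col17a1, Col18a1, Col7a1, Col4a1 and Col4a2) and 0 rose, with a median of -1.01. Col18a1, the precursor of endostatin, had 235, 412, 303 and 351 CPM in D164A/fl and 95.3, 248, 30.8 and 50.4 CPM in D164A/- cells (log2 fold change -2.01 ± 0.475 SE, adjusted p = 0.0372, limma), and was not called in edgeR. Of the matrix and matricellular genes, 6 of 24 fell, among them the lysyl oxidases Loxl3 and Loxl4 (-2.01 and -1.96, Loxl4 with adjusted p = 0.0712 in the fit with the block), and Fbln5 (fibulin-5) rose (log2 fold change 2.35 ± 0.591 SE, adjusted p = 0.0459, and 0.0822 with the replicate block). With those 2 libraries left out, 2 rose and 11 fell. With the replicate block, 0 were higher and 5 lower. Of the proteases and inhibitors, 3 of 24 fell and 0 rose (12.5% called, beside 6.82% over all genes). They were led by Adam8 (log2 fold change -2.99 ± 0.413 SE, adjusted p = 0.00544) and Timp1, an inhibitor of metalloproteinases (log2 fold change -2.27 ± 0.520 SE, adjusted p = 0.0341, and 0.0588 with the replicate block). Leaving out the 2 libraries that stood apart gave 1 higher and 11 lower. The integrins Itgb3 and Itga8 rose and none of the 14 tested fell in limma (14.3% called, beside 6.82% over all genes). Itga8 had log2 fold change 2.12 ± 0.544 SE, adjusted p = 0.0483, and 0.0725 with the replicate block. On the 6 other libraries, 3 were higher and 1 lower. Neither of the genes that rose passed with the replicate block.

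Of the target genes of the YAP and TEAD factors, 24 were tested, and of these 6 fell (Nt5e, Axl, Igfbp3, Fjx1, Ccn2 and Foxf2, the last with -0.91 and adjusted p = 0.0453 with the GC trend removed) and 1 rose (Birc5, an inhibitor of apoptosis that is also a mitotic gene, log2 fold change 1.22 ± 0.267 SE, adjusted p = 0.03, and 0.0502 with the replicate block). The counts were 3 higher and 11 lower when both number 2 libraries of the Wnt3a experiment were left out. The replicate block gave 0 higher and 6 lower. Ccn2 (CTGF) had 129, 121, 50.7 and 87.9 CPM in D164A/fl and 36.6, 33.3, 23.3 and 42.7 CPM in D164A/- cells (log2 fold change -1.43 ± 0.276 SE, adjusted p = 0.0197, limma), and Ccn1 (CYR61), its close relative, a log2 fold change of -0.49 (adjusted p = 0.436). In the IGF list, Igfbp3 had 190.4, 302, 93.01 and 126 CPM and 16.4, 63.2, 1.70 and 6.09 CPM (log2 fold change -3.75 ± 0.545 SE, adjusted p = 0.0068) and Igfbp4 fell as well (log2 fold change -2.28 ± 0.530 SE, adjusted p = 0.0358, and 0.0578 with the replicate block, -2.11 and adjusted p = 0.0639 with the GC trend removed), 2 of 10 tested (20% called, beside 6.82% over all genes). With those 2 libraries left out, 2 rose and 4 fell. In the fit with the replicate block, 0 rose and 1 fell. Igfbp5, one of the most abundant transcripts of D164A/- cells, had 4234, 5477, 122 and 332 CPM and 7725, 5071, 14305 and 13602 CPM (log2 fold change 3.24 ± 1.04 SE, adjusted p = 0.0912, 4.36 and adjusted p = 0.0193 without both libraries that stood apart). Of the EGF family and ERK feedback genes, 4 of 26 fell and none rose (15.4% called, beside 6.82% over all genes). Among those that fell were the ERK feedback genes Spry1 (log2 fold change -2.01 ± 0.306 SE, adjusted p = 0.00834) and Il17rd (log2 fold change -1.34 ± 0.247 SE, adjusted p = 0.017). Leaving out the 2 libraries that stood apart gave 2 higher and 10 lower.

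The Notch ligands Jag1 and Jag2 fell while the Notch target Hey1 rose. Jag1 had 177, 38.7, 214 and 236 CPM in D164A/fl and 16.9, 20.6, 7.14 and 11.7 CPM in D164A/- cells (log2 fold change -3.29 ± 0.584 SE, adjusted p = 0.0146, limma). Jag2 had 18.5, 93.2, 17.4 and 26.8 CPM and 1.49, 8.53, 1.89 and 1.79 CPM (log2 fold change -3.07 ± 0.552 SE, adjusted p = 0.0155), and Hey1 had 47.1, 83.5, 3.43 and 7.33 CPM and 181, 112, 285 and 245 CPM (log2 fold change 3.31 ± 0.787 SE, adjusted p = 0.0384, and 0.0755 with the replicate block). The other 10 tested genes of the pathway were not called. On the 6 other libraries, 4 were higher and 3 lower. Pairing libraries by number gave 0 higher and 2 lower. Of the TGFβ and SMAD list 3 of 35 fell (8.57%, beside 6.82% called over all genes), Bmp7 (log2 fold change -3.15 ± 0.423 SE, adjusted p = 0.00471), Fstl3 and Bmp2. The counts were 7 higher and 9 lower when both number 2 libraries of the Wnt3a experiment were left out. In the aryl hydrocarbon and retinoid list, Cyp1b1 rose from 19.5, 11.97, 7.25 and 8.11 CPM to 226, 69.5, 311 and 173 CPM (log2 fold change 3.85 ± 0.484 SE, adjusted p = 0.00356). Aldh1a3 and the retinoic acid hydroxylase Cyp26b1 (log2 fold change 1.77 ± 0.419 SE, adjusted p = 0.0373, and 0.0668 with the replicate block) rose, and the retinol dehydrogenase Rdh10 fell (log2 fold change -1.67 ± 0.190 SE, adjusted p = 0.00229), of 16 tested. With the replicate block, 2 were higher and 1 lower.

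Among cholesterol and fatty acid synthesis genes 2 of 32 tested rose and 0 fell. That is 6.25% called, near the 6.82% called over all genes (2.85% higher). The genes were the desaturase gene Scd1 (2658, 3476, 311 and 468 CPM in D164A/fl and 5465, 4913, 8323 and 6430.3 CPM in D164A/- cells, log2 fold change 2.51 ± 0.642 SE, adjusted p = 0.0479, and 0.084 with the replicate block, limma) and the sterol carrier Stard4 (log2 fold change 1.21 ± 0.293 SE, adjusted p = 0.0407, and 0.0616 with the replicate block). With those 2 libraries left out, 8 rose and 1 fell. Neither of the genes that rose passed with the replicate block. The hypoxia-induced Egln3 rose (log2 fold change 2.33 ± 0.314 SE, adjusted p = 0.00476) as 1 of 29 genes of glycolysis and hypoxia (3.45%, beside 6.82% called over all genes). Leaving out the 2 libraries that stood apart gave 5 higher and 4 lower. Of the contractile and actin-binding genes 3 of 17 fell (17.6%, beside 6.82% called over all genes), Tpm2 (log2 fold change -1.51 ± 0.380 SE, adjusted p = 0.046), Ccn2 and Pdlim7. None of the 36 tested interferon and antigen presentation genes passed in limma, Oas3 (log2 fold change -1.90 ± 0.553 SE, adjusted p = 0.0709, -2.36 and adjusted p = 0.0259 without both libraries that stood apart) and Bst2 (log2 fold change -0.90 ± 0.319 SE, adjusted p = 0.117) coming nearest. On the 6 other libraries, 0 were higher and 5 lower, in a fit that called 16.6% of all genes.

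**Figure D3:**
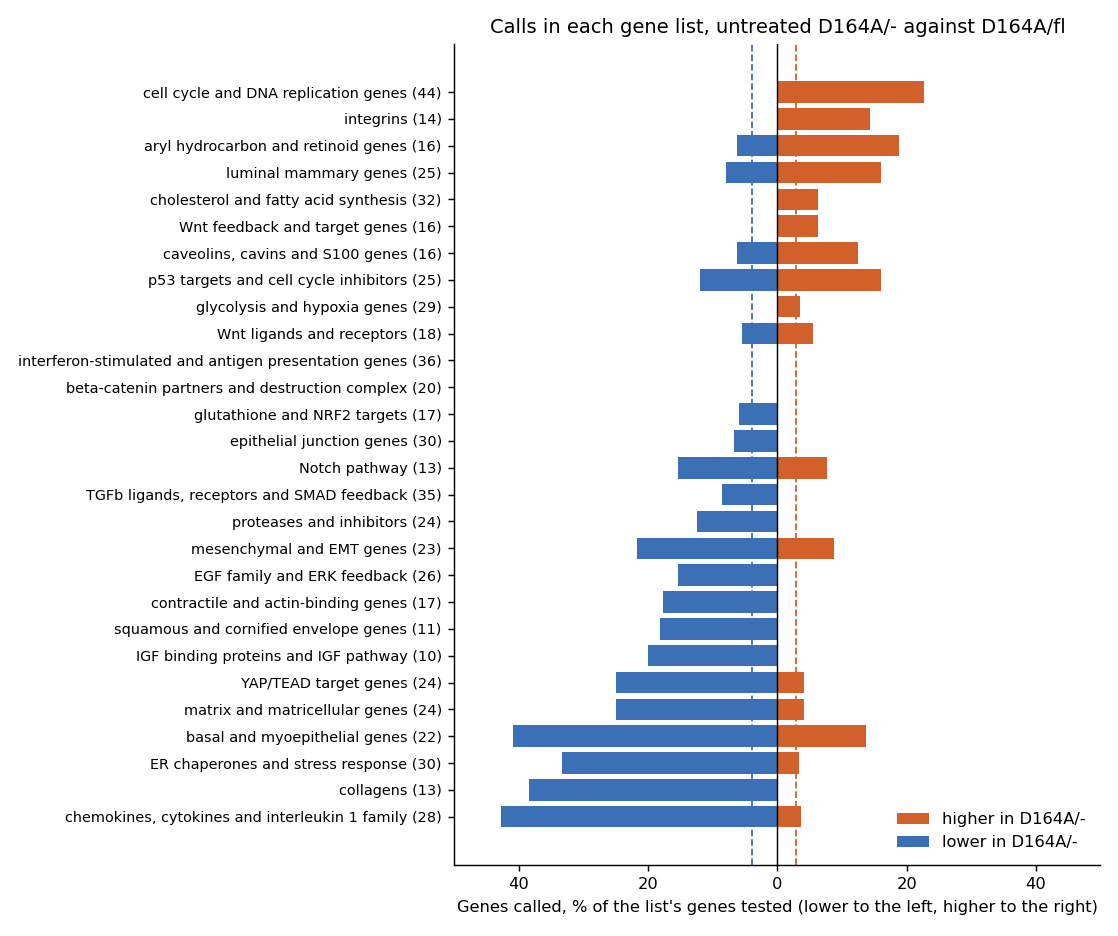
Share of the tested genes of each list (y axis, number tested in parentheses) that were lower (blue, to the left) or higher (orange, to the right) in D164A/- cells, in % on the x axis, in the fit without the replicate block. Dashed lines mark the shares over all 11572 genes, 3.97% lower and 2.85% higher. The longest bars are the 12 of 28 chemokine and cytokine genes that fell on the lower side and the 10 of 44 cell cycle genes that rose on the higher side.

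More genes were called between the genotypes in the TGFβ than in the Wnt3a experiment. Within the Wnt3a experiment 185 genes were called (1.6%), 38 higher and 147 lower, and within the TGFβ experiment 2107 (18.2%), 1081 higher and 1026 lower (limma, 2 against 2 libraries in a fit of all 8). Of the 185, 142 (76.8%) were called in the same direction in the TGFβ experiment, 6.74% of its calls, and 2 in the opposite direction. All 789 genes called over both experiments had the same sign in each, and in 636 of them the TGFβ experiment gave the larger change. A call rests on the mean of both differences, so equal signs largely follow from the selection and are no check of agreement. The difference between the experiments itself was called for 0 genes (0.0%) in limma and for 0 in edgeR, with 1880 and 1926 genes at an unadjusted p below 0.05. In the fit with the replicate block 631 genes were called in the Wnt3a experiment (5.45%), and the difference between the experiments was called for 1703 genes (14.7%), 1036 with a larger and 667 with a smaller value in the TGFβ experiment. That difference was called for 300 genes without both number 2 libraries of the Wnt3a experiment and for 863 without D164A/fl number 1 of it. The calls of the Wnt3a experiment were 40 without D164A/- number 1 of it, 57 without either D164A/- and 83 without either D164A/fl library of the TGFβ experiment. Those of the TGFβ experiment were 384 and 835 without its D164A/- number 1 and 2 and 472 and 910 without its D164A/fl number 1 and 2.

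**Figure D4:**
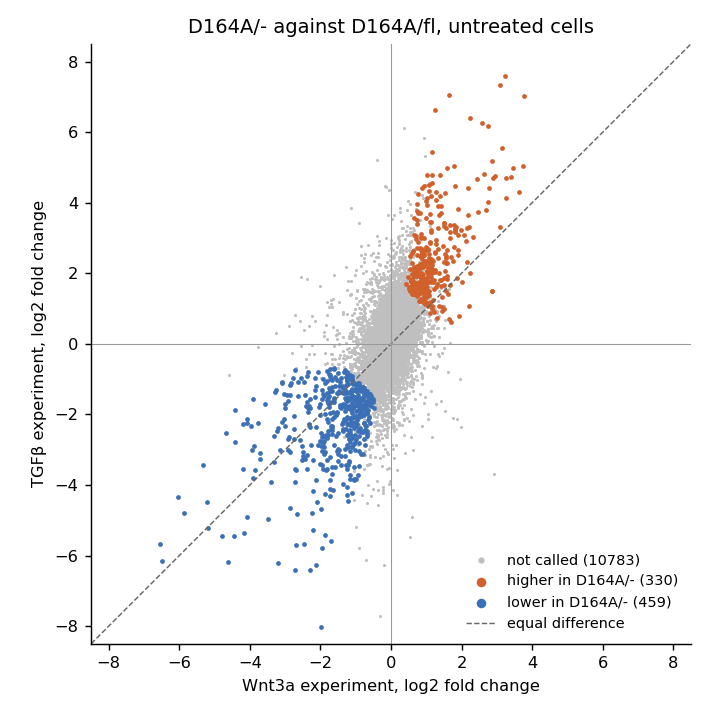
Log2 fold change of D164A/- over D164A/fl in the Wnt3a experiment (x axis) and the TGFβ experiment (y axis) for the 11572 genes tested, 1 point per gene. Orange and blue points are the 330 genes higher and the 459 lower in the comparison over both experiments, and the dashed line marks equal differences. In 636 of the 789 coloured points the change in the TGFβ experiment was the larger one.

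Csn1s1 (αS1-casein) had the smallest adjusted p of the difference between the experiments with the replicate block (difference 5.40 ± 0.275 SE, adjusted p = 0.0206, and 0.0899 without the block, limma). It had 73.5, 19.9, 6.26 and 5.82 CPM in D164A/fl and 262, 56.7, 1229.7 and 704 CPM in D164A/- cells, so D164A/- cells were higher in both experiments and by more in the TGFβ experiment (log2 fold change 1.64 in the Wnt3a and 7.05 in the TGFβ experiment). Atp6v1b1, a proton pump subunit, overlapped between the genotypes in the Wnt3a and was higher in D164A/- cells in the TGFβ experiment, with 10.9, 49.6, 0.142 and 0.482 CPM and 18.6, 16.8, 51.1 and 44.1 CPM (difference 5.62, adjusted p = 0.0238 with the block). Vim, Fn1 and Igfbp5 also had unlike levels in untreated D164A/fl cells of the experiments, which were not tested against each other. Vim had 158 and 548 CPM in the Wnt3a against 18.7 and 27.7 CPM in the TGFβ experiment. For the difference between the experiments, Vim and Fn1 had adjusted p = 0.0867 and 0.091 (limma), and 0.0255 and 0.0318 with the replicate block. The experiments differ in days of culture and in anything else that changed between them, and these cannot be told apart.

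**Figure D5:**
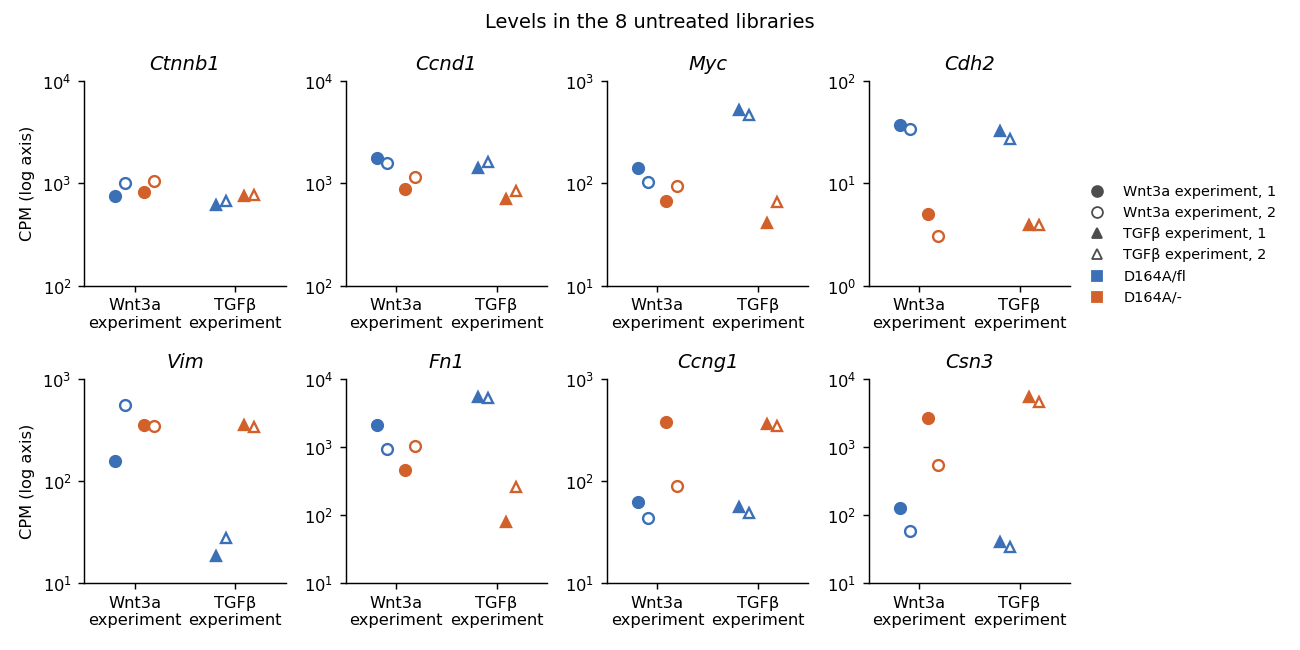
CPM (log axis) of 8 genes in the 8 untreated libraries, with the experiment on the x axis, D164A/fl in blue, D164A/- in orange and open symbols for number 2. Ctnnb1 lies between 612 and 1045 CPM in all libraries, Cdh2 is lower in D164A/- cells of both experiments, and Myc, Vim and Fn1 show a wider gap between the genotypes in the TGFβ experiment.

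The same contrast in treated cells used 8 other libraries, 4 per genotype, 4 with Wnt3a at 100 ng/ml and 4 with TGFβ at 2 ng/ml. Of the 11572 genes, 846 were called (7.31%), 399 higher and 447 lower in D164A/- cells. Of the 789 genes called without cytokine, 505 (64.0%) were also called in the same direction with cytokine, which is 59.7% of the 846, and 0 were called in the opposite direction. Single libraries moved the count of treated calls to 486 and 550 without D164A/fl number 2 and 1 of the TGFβ experiment and to 1295 without D164A/- number 2 of the Wnt3a experiment. Krt17 had 292, 348, 42.3 and 121 CPM in treated D164A/fl and 0.407, 2.37, 0.265 and 0.147 CPM in treated D164A/- cells (log2 fold change -6.56, adjusted p = 8.43e-05, limma). Csn3 had 5.40, 1.47, 25.2 and 34.99 CPM and 1514, 128, 1565 and 1099 CPM (log2 fold change 6.11, adjusted p = 0.00158), and Ccng1 48.004, 30.4, 52.1 and 42.9 CPM and 332, 89.2, 357 and 486 CPM (log2 fold change 2.63, adjusted p = 0.00507). Cdh2 had 38.7, 40.8, 62.4 and 71.1 CPM and 4.48, 4.67, 51.9 and 47.8 CPM (log2 fold change -1.64, adjusted p = 0.0396), so that the gap seen without cytokine was kept in Wnt3a-treated cells and was small in TGFβ-treated cells. Of the lists, cell cycle genes had 21 of 44 higher and 0 lower in treated cells, basal genes 11 of 22 lower and 2 higher, cytokines 6 of 28 lower and 1 higher, and the chaperone and stress list 7 of 30 lower and 1 higher. The treated cells are of the same lines, so this comparison is independent in its samples but not in its lines.

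The series holds the same kind of pair for the β-catenin alleles deltaC and dm, each with a floxed or a deleted second allele, and these gave other differences. In a fit of the 24 untreated samples of the 6 mutant genotypes with 12779 genes, 1062 genes were called for D164A (8.31%), 1454 for deltaC (11.4%) and 2302 for dm (18.0%). The D164A difference differed from the deltaC difference in 2528 genes (19.8%), 1232 with a higher and 1296 with a lower value, and from the dm difference in 2859 genes (22.4%), 1480 higher and 1379 lower. Of the 1062 genes called for D164A, 85 (8.004%) were called in the same and 186 (17.5%) in the opposite direction for deltaC, which are 5.85% and 12.8% of the deltaC calls, and 168 (15.8%) in the same and 237 (22.3%) in the opposite direction for dm, which are 7.30% and 10.3% of the dm calls. Ephb1, an ephrin receptor, was among the 4 genes with the smallest adjusted p in both tests, and the other 6 genes of these sets (Gpr20, Ebf3, Peg10, Flt4, Cwh43 and Ksr2) had at most 0.127 CPM in every untreated D164A library. Ephb1 had 13.9, 14.1, 11.2 and 15.9 CPM in D164A/fl and 0, 0, 0.0386 and 0.0381 CPM in D164A/- cells, a log2 fold change of -3.85 beside 0.0489 for deltaC and 0.0165 for dm (adjusted p of the differences = 4.35e-13 and 1.72e-13, limma). Krt17 likewise had -6.32 for D164A beside -0.22 and 1.13 (adjusted p = 1.44e-07 and 4.1e-09), and Csn3 5.41 beside 1.45 and 0.19 (adjusted p = 0.000583 and 1.95e-05). Krt17 and Csn3 were picked for their large D164A changes, and these tests reuse the same D164A libraries. That choice favours small p-values.

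Of the 12779 genes, 30 were called lower and 4 higher in the cells with the deleted second allele in all 3 pairs of genotypes. The pairs had 8.31% (D164A), 11.4% (deltaC) and 18.0% (dm) of genes called in either direction. The 30 include Ccnd2 (cyclin D2), with 19.9, 9.62, 9.45 and 13.4 CPM in D164A/fl and 0, 0.0422, 0.0386 and 0.0381 CPM in D164A/- cells and log2 fold changes of -3.72, -5.25 and -3.78 for D164A, deltaC and dm. Hspb8 had -5.12, -5.25 and -1.41, Runx3, a transcription factor, -2.41, -3.37 and -4.27, and the desmosomal cadherin gene Dsg3 -4.22, -1.81 and -4.12. Krt6a, Krt16, Ly6d and Timp1 were also among the 30. The 4 that rose were Mdm2 (1.02, 1.49 and 1.03), Reps2, Cyp4f17 and Cutal. The overlap of the 3 pairs was not tested.

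Cells of fl/fl genotype, which carry floxed alleles and no mutant one, are given side by side for some genes. Krt17 had 3.91, 3.03, 11.2 and 6.44 CPM in untreated fl/fl cells, between the D164A genotypes, and Hspb8 47.9, 68.8, 81.3 and 60.9 CPM, near the D164A/fl level. Csn3 was at 0.536, 0.153, 0.523 and 0.150 CPM, below both. Ccng1 was at 597, 825, 314 and 513 CPM and Mdm2 at 188, 199.9, 154 and 169 CPM, ranges that overlapped those of D164A/- cells (89.8 to 379.7 CPM and 84.8 to 177 CPM) and lay above those of D164A/fl cells (43.97 to 62.9 CPM and 57.3 to 80.96 CPM). Adgre5 was at 11.5, 4.98, 26.5 and 14.5 CPM and Bhlhb9 at 11.99, 12.8, 7.89 and 10.3 CPM, where D164A/fl libraries had at most 1 read. These are levels without a test.

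Sulf1, a heparan sulfate sulfatase, and Wipf1, which binds WASP, had 0 reads in all 4 D164A/- libraries. In D164A/fl cells Sulf1 had 2.40, 2.20, 2.94 and 2.83 CPM and Wipf1 2.02, 1.01, 2.65 and 2.80 CPM, at least 22.2-fold and 18.2-fold higher there when 3 reads per library are taken as the limit (log2 fold change -1.84 ± 0.161 SE, adjusted p = 0.000785 for Sulf1 and log2 fold change -1.60 ± 0.211 SE, adjusted p = 0.0043 for Wipf1 on the log2(CPM + 1) scale, limma). Such limits cover counting error only. These are the 2 genes with 0 reads throughout D164A/- cells and at least 1 CPM throughout D164A/fl cells.

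The difference was not spread evenly over the chromosomes. Genes of chromosome 10 had a median log2 fold change of 0.32 (564 genes, 27 higher and 17 lower) and genes of chromosome 5 of -0.24 (751 genes, 8 higher and 50 lower), while the median over all genes was 0.0090. In treated cells, the medians were 0.33 and -0.28. Chromosome X came next, with a median of 0.21 (382 genes, 23 higher and 5 lower) and of 0.21 in treated cells. The medians of the remaining chromosomes lay between -0.13 and 0.14. Relative to the mean of the D164A/fl libraries, the median of chromosome 10 lay at -0.073 to 0.13 in the 4 D164A/fl and 0.19 to 0.46 in the 4 D164A/- libraries, and that of chromosome 5 at -0.047 to 0.11 and -0.32 to -0.077, so the genotypes did not overlap. With the GC trend removed the medians were 0.29 and -0.25, and without both number 2 libraries of the Wnt3a experiment 0.42 and -0.25. The named genes on chromosome 5 include Csn3 and Csn1s2a, which rose, and Cxcl1, Cxcl2 and Cxcl5, which fell. These chromosomes were picked for their medians after the values were seen, so no test was made.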

How the data were processed

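RNA-sequencing values of 56 samples in 28 conditions with 2 replicates each were used, of which 8 are the untreated D164A/- and D164A/fl samples. Per the labels and the study's methods, poly(A) RNA was sequenced from stranded libraries, mapped with STAR to mm10 keeping unique hits, and counted over the exons of RefSeq genes. The authors deposited a normalized expression signal, read counts divided by an effective library size in M reads, here called CPM. Dividing by the value of 1 read gave whole numbers for 100% of the entries of each sample (tolerance 0.001 reads), so whole reads were recovered, and column totals were 877497 to 1235580. Of 20314 genes, 20261 matched a RefSeq symbol (GRCm38.p6), which also gave positions. Promoter sequences are from RefSeq, and GC content from GENCODE transcripts.

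Log2(CPM + 1) was tested with limma 3.58.1 in R 4.3.3 (eBayes with trend) for the 11572 genes that reached 1 CPM in 4 or more of the 8 samples, with experiment as a block. Such a filter passes genes that are high in a single genotype. Adjustment of p-values followed Benjamini-Hochberg across every gene of the fit, and a call needed an adjusted p no higher than 0.05 together with a log2 fold change of 1 or more in size. The within-experiment contrasts and their difference came from a fit with a coefficient per condition. Treated cells were fitted on the same genes, and the comparison with deltaC and dm on 24 untreated samples and the 12779 genes that reached 1 CPM in 4 or more of them. The scripts were tested on simulated data.

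Replicate numbers were taken from the labels. Deviations of same-numbered untreated D164A/- and D164A/fl libraries correlated across genes with 0.79 in the Wnt3a and 0.32 in the TGFβ experiment, so all 4 pairs exceeded 0.1 and the numbers were taken to pair the untreated libraries. The labels do not say what a number marks. In treated cells the values were 0.675 and -0.125 and the numbers were not taken to pair them. A fit with the replicate block is given beside a gene named from the comparison over both experiments where it changes the call, and beside a list where it moves a count by over 1.5 times.

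Named genes were 16 fixed genes of Wnt signaling and EMT, the 12 largest increases and 12 largest decreases among called genes whose libraries do not overlap, whose sign is the same in both experiments and whose higher mean is at least 10 CPM (510 genes qualified), up to 4 called genes per list (the 2 nearest the threshold where none was called), and the 4 genes with the smallest adjusted p of each test of a difference. Not every gene so picked is reported, and every other gene named in the text (further list members, genes of the 3 pairs, of the zero counts and of the difference between experiments such as Csn1s1) was chosen after its values were seen. The comparison, the 33 lists (28 pathways and 5 cell types) and this rule were chosen with earlier results of these data known. Of the list symbols, 6 were not matched and are not analysed here. Some genes are not reported here by name. Alternatives were a pseudocount of 0.1, no filter, median-of-ratios rescaling, quasi-likelihood tests of edgeR 4.0.16 on the recovered reads, all 56 samples, a lowess correction for GC content (span 0.3, curve from 9153 genes averaging 10 CPM or more), the replicate block, no experiment block, no minimum fold change and leaving out each sample. Leaving out both number 2 libraries of the Wnt3a experiment was added after seeing the data.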

Additional observations from a re-analysis of the deposited data

Results flagged for a closer look

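Some single libraries lay far from the other 3 of their genotype (gap to the nearest library over the range above the 95% limit of Dixon's test). This was so in 14 of 192 groups of 4 libraries (7.29%), and chance flags about 1 in 20. In the D164A/- library number 2 of the Wnt3a experiment these were Cdh1 (862 CPM), Ly6d (5.23 CPM), Tle1 (44.7 CPM), Jag2 (8.53 CPM), Kif11 (90.6 CPM), Ccng1 (89.8 CPM) and S100a14 (17.5 CPM), 7 of the 14. In D164A/fl number 2 of the Wnt3a experiment these were Sprr1a (9.62 CPM) and Jag1 (38.7 CPM), and in D164A/fl number 1 of it Hspb8 (52.5 CPM), Tle1 (48.1 CPM) and Fstl3 (2.63 CPM). In the TGFβ experiment, Gadd45a had 13.7 CPM in D164A/- number 1 and Bhlhb9 0.0322 CPM in D164A/fl number 2. That Bhlhb9 value is 1 read, against 0 in the other D164A/fl libraries. Both number 2 libraries of the Wnt3a experiment are those that stood apart on the second principal component, and the part of this in the values was not tested.

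The difference between the genotypes differed between the experiments in 1703 genes with the replicate block (limma), and in 0 without it. It differed from the deltaC pair in 2528 and from the dm pair in 2859 genes. The genes with the smallest adjusted p against deltaC (limma, log2 differences) were Ephb1 (-3.90, adjusted p = 4.35e-13), Gpr20 (-3.44, 1.97e-12), Ebf3 (-3.88, 1.97e-12) and Peg10 (6.11, 3.48e-12). Against dm they were Flt4 (-5.57, adjusted p = 1.28e-15), Cwh43 (7.16, 4.98e-14), Ephb1 (-3.86, 1.72e-13) and Ksr2 (-3.55, 2.15e-13). Of these, Ephb1 was the gene whose level differed between the D164A genotypes.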

How the results depend on the processing

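The 789 calls over both experiments became 1916 without both number 2 libraries of the Wnt3a experiment (1753 with the GC trend also removed) and 1188 with all 56 samples. They were 225 to 1435 when 1 library was left out, and 604 to 992 under the other alternatives, with 660 in edgeR. The 185 calls of the Wnt3a experiment became 357 with the GC trend removed, 631 with the replicate block, 576 with both, 695 without both number 2 libraries (666 with the GC trend removed) and 364 with all samples, and were 40 to 256 with 1 library left out. The 2107 calls of the TGFβ experiment were 384 to 2528 with 1 library left out. The difference between the experiments, called for 0 genes, was called for 9 without a filter, 916 with the GC trend removed, 1703 with the replicate block, 1752 with both, 300 without both number 2 libraries (481 with the GC trend removed), 693 with all samples, and 0 to 863 with 1 library left out. The cause of these shifts was not tested. The 846 calls in treated cells were 486 to 1295 with 1 library left out, and 726 with the replicate block, whose numbers did not pair those libraries. The differences from deltaC and dm gave 2104 to 2876 and 2460 to 3695 genes with 1 library left out. No called gene among those named by the rule changed sign under the alternatives run. The balance of calls turned in places, from 330 higher and 459 lower over both experiments to 718 and 717 without D164A/fl number 2 of the Wnt3a experiment, from 1081 higher and 1026 lower in the TGFβ experiment to 1006 and 1030 without a filter and 399 and 436 without its D164A/- number 2, from 399 and 447 in treated cells to 372 and 354 with the block, and from 1232 and 1296 against deltaC to 1332 and 1210 with median-of-ratios rescaling and 1615 and 1476 with the GC trend removed. Of 93 named genes, 12 changed their call with the block, 11 in edgeR and 19 without the filter, most often lost being Tslp (13 alternatives), Itga8 (12), and Fbln5, Igfbp4 and Scd1 (11 each). Calr, Hey1 and Kif11 were lost in 10 alternatives each. Col18a1, Itgb3, S100a4, Slc7a11, Stard4 and Timp1 were lost in 9 each. Besides the block results given here and beside single genes and lists, the block moved no count of calls over all genes by over 1.5 times.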
